A study of Homo sapiens with 24 samples.

Results

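The genes described here encode the enzymes of glycolysis, the glucose transporter that feeds it, the enzymes that decide what becomes of pyruvate, and a set of transcripts linked to low oxygen, HIF1A among them. A list of 34 genes was matched to array probe sets that carry a single gene symbol, and the probe set with the highest mean intensity over all arrays stood for each gene. Of the 34, 30 were measured, out of 12165 genes on the arrays. PGAM1, SLC16A1, SLC16A3 and CA9 were not analysed here, so the phosphoglycerate mutase step and the main lactate transporters are missing from what follows.

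The data are 24 one-colour Affymetrix expression arrays in 8 groups of 3, from human cell lines of acute myeloid leukemia (AML). The 4 lines are KG-1, HL-60, U937 and MOLM-14. Each line was given the solvent DMSO or 4 µM R406 for 24 h. R406 is the active form of the drug fostamatinib and inhibits the kinase SYK along with other kinases, FLT3 among them. MOLM-14 depends on a mutated, constantly active FLT3, U937 is monocytic, HL-60 promyelocytic and KG-1 an immature myeloblast line, and each stands for a single patient. Treatment was in triplicate, but no label tells whether these were independent cultures, and the p-values may then reflect technical spread only.

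Glycolysis splits glucose into pyruvate in the cytosol: hexokinase traps the sugar, phosphofructokinase commits it, and the steps from GAPDH to pyruvate kinase return ATP. Lactate dehydrogenase turns pyruvate into lactate, while pyruvate dehydrogenase, held back by the PDH kinases, passes it to mitochondria. Many of these genes are known targets of the hypoxia-inducible factor HIF-1 and of MYC, and several steps are served by isoforms from separate genes.

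Intensities are given on the linear scale the authors deposited, and a change is the log2 difference of intensity plus 1, R406 minus DMSO, with its standard error (SE) from limma. A gene is said to have risen or fallen where limma's adjusted p (Benjamini-Hochberg over all 12165 genes) was under 0.05. Levels are compared between arrays for the same gene only, since probe sets of different genes share no scale.

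Array medians lay between 19.1 and 21.4. Under DMSO the pan-leukocyte antigen PTPRC averaged 444 to 1033 and the myeloid factor CEBPA 468 to 2240 over the lines, and SPI1, the PU.1 factor of myeloid cells, 15.1 to 35.4. The granule gene MPO averaged 6416 in HL-60 and 44.0 or less elsewhere, and CD33 and LYZ were not analysed here. The 5 epithelial and fibroblast markers summed to between 45.5 and 59.8 on every array and the 3 T and B cell markers to between 28.7 and 64.7, with none at 0. The 5 measured myeloid markers summed to 2260 to 2349 with DMSO and 3629 to 4166 with R406 in MOLM-14 (4 rose, 1 fell), and to 1538 to 1647 and 1984 to 2148 in KG-1 (3 rose, 1 fell). The marker that fell in MOLM-14 was MPO (-1.74, log2). Such a sum weighs genes by brightness, and in MOLM-14 most of it was CEBPA and PTPRC, so it is no measure of all markers alike. In HL-60 that sum was 9244 to 9773 with DMSO and 7850 to 8248 with R406, where 1 marker rose, limma called no marker lower, and most of the sum is MPO (6416 to 4981, adjusted p = 0.117). In U937 it was 1718 to 1777 and 1975 to 2053, and 1 rose. The part of this shift in the changes below was not tested. KG-1 R406 replicate 2 stood furthest from its group, with a root mean square distance of 0.270 (log2, all genes) against 0.132 to 0.242 for the other arrays, and all 23 KG-1 calls held without it.

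The promoters of 5 genes are shown: LDHA, PGK1, BNIP3 and P4HA1 are textbook hypoxia targets whose transcripts fell with R406 in MOLM-14 and KG-1, and LDHB is the partner of LDHA. Each window is the 250 bases before the RefSeq gene start of assembly GRCh38.p14, printed 5′ to 3′ on the strand of the gene. Capitals mark ACGTG, a form of the core of the element that hypoxia-inducible factors bind, on either strand (CACGT is its reverse), and CACGTG, the E-box bound by MYC with MAX, which reads ACGTG on both strands and so counts as 2 matches. No other form of that core was searched. LDHA lies at chr11:18394313-18394562 (plus strand), LDHB at chr12:21657843-21658092 (minus), PGK1 at chrX:78103998-78104247 (plus), BNIP3 at chr10:131981924-131982173 (minus) and P4HA1 at chr10:73096867-73097116 (minus).
LDHA: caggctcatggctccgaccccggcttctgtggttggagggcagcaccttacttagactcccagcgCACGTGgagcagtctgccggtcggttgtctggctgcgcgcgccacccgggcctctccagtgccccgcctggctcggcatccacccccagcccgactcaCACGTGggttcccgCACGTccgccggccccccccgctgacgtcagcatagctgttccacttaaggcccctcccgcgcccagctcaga
LDHB: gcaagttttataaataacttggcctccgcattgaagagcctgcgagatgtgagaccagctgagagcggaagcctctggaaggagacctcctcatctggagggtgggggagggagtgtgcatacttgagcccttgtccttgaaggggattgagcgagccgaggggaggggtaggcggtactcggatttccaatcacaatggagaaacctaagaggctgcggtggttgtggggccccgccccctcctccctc
PGK1: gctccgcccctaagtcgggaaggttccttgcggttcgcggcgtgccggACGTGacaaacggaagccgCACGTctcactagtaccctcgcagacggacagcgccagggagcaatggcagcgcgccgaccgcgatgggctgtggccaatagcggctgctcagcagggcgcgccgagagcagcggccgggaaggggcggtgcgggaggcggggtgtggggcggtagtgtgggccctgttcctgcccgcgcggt
BNIP3: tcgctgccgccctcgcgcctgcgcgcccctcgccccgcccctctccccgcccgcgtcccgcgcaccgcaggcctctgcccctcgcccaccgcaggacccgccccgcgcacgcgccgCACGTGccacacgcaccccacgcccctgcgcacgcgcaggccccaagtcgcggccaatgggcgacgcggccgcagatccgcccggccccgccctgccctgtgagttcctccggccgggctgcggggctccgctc
P4HA1: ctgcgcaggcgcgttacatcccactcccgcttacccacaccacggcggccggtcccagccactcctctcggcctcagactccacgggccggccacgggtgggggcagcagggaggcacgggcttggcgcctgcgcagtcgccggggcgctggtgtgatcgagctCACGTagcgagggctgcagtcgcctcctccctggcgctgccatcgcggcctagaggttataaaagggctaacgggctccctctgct
The LDHA window holds 5 ACGTG matches, of which 4 belong to its 2 E-boxes. PGK1 has 2 ACGTG matches and no E-box, BNIP3 has 1 E-box, P4HA1 has 1 ACGTG, and the LDHB window has no match. Of the 27 members with a window in the RefSeq table, 11 hold an ACGTG and 4 a CACGTG in their most upstream window, beside 18.5% and 6.34% of all 35116 windows of these 250 bases. Counting any window of a gene, 16 members hold an ACGTG and 7 a CACGTG, and the share of all genes on that count was not computed. The percentages are of windows and not of genes, so no excess of matches can be read from either count. SLC2A1, ENO1 and PKM, which fell in the same lines, have no ACGTG in their window, and PFKP and TPI1 have one only in a window other than the most upstream. GAPDH, which changed by only -0.19 in MOLM-14 and -0.22 in KG-1, has 1 E-box in its most upstream window. ADM, PFKFB3 and HIF1A, which rose in MOLM-14, have no ACGTG in theirs. A match is a run of letters and not a site, and its absence says only that these letters are not in this window.

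In MOLM-14, 17 of the 30 genes fell and 6 rose with R406, where 25.0% of all genes fell and 31.1% rose, 56.2% together. Falls of at least 2-fold were found for 8 members, beside 9.08% of all genes, and 1 member rose that far, beside 6.46%. P4HA1 lay just outside the 2-fold line at -0.9994 and GPI inside it at -1.29. With probe sets averaged, TPI1 (-0.99) and PKM (-0.80) lay outside it. PGK1, outside it at -0.94 with the probe set used, read -1.35 and -1.50 with 217356_s_at and 200737_at. The median change of the 30 was -0.34, beside 0.07 for all genes. In these bulk cultures fewer cells of a kind and less RNA per cell cannot be told apart.

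KG-1 had the same direction, with 20 genes down and 3 up, where 20.9% of all genes fell and 23.6% rose, 44.5% together. Here 5 members fell at least 2-fold, beside 4.41% of all genes, with HK1 just inside that line (-1.02) and SLC2A1 just outside (-0.9956), and the median change was -0.50 beside 0.02. Without KG-1 R406 replicate 2, HK1 (-0.84) and PKM (-0.97) lay outside the line. With probe sets averaged, PKM (-0.60) and VEGFA (-0.52) lay outside it and HK2 (-1.23) inside, so this count depends on these choices. Treated and control arrays were fully apart for 23 members in MOLM-14 (57.8% of all genes) and for 23 in KG-1 (49.8%).

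U937 and HL-60 changed less. In U937 5 genes fell and 1 rose, where 5.43% of all genes fell and 6.12% rose (11.5% together), and the median was -0.07 beside 0.003. In HL-60 7 fell and 4 rose, where 7.97% fell and 7.19% rose (15.2% together), and the median was -0.01 beside -0.003. Arrays did not overlap for 13 members in U937 (34.0% of all genes) and 18 in HL-60 (32.8%). The 11 calls in HL-60 became 7 without DMSO replicate 1 and 6 without R406 replicate 2.

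As an equal-weight mean over the 4 lines, 18 members fell and 5 rose, where 24.0% of all genes fell and 29.1% rose. The change differed between lines by limma's moderated F test for 26 of the 30, and for 54.9% of all genes. In both MOLM-14 and KG-1, 15 members fell, or 15 of the 17 falls in the former and 15 of the 20 in the latter. Over all genes 16.1% fell in both, 64.2% of the MOLM-14 falls and 77.0% of the KG-1 falls, so the share of the KG-1 falls is near that background. BNIP3 was called lower in all 4 lines, though its U937 call was lost with any 1 U937 array left out and its HL-60 call with either of 2 arrays left out. P4HA1 was called lower in 3 lines, and in U937 under 6 of the alternatives tried. HK1, PFKFB3 and VEGFA rose in some lines and fell in others, and PFKL and PFKFB4 were called in none.

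The ratio of the 3′ to the 5′ control probe sets of ACTB, a sign of RNA integrity and labelling, moved with treatment. R406 minus DMSO was 0.34 in MOLM-14, 0.12 in KG-1, -0.04 in U937 and -0.13 in HL-60 (log2). The groups did not overlap in MOLM-14, KG-1 and HL-60, with a two-sided exact permutation p of 0.1 each, the smallest that 3 against 3 allows, or 0.16 after adjustment over 8 such ratios. The GAPDH ratio moved by 0.08 in MOLM-14 and 0.10 in KG-1. The part of these shifts in the changes of the 30 genes was not tested.

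**Figure D1:**
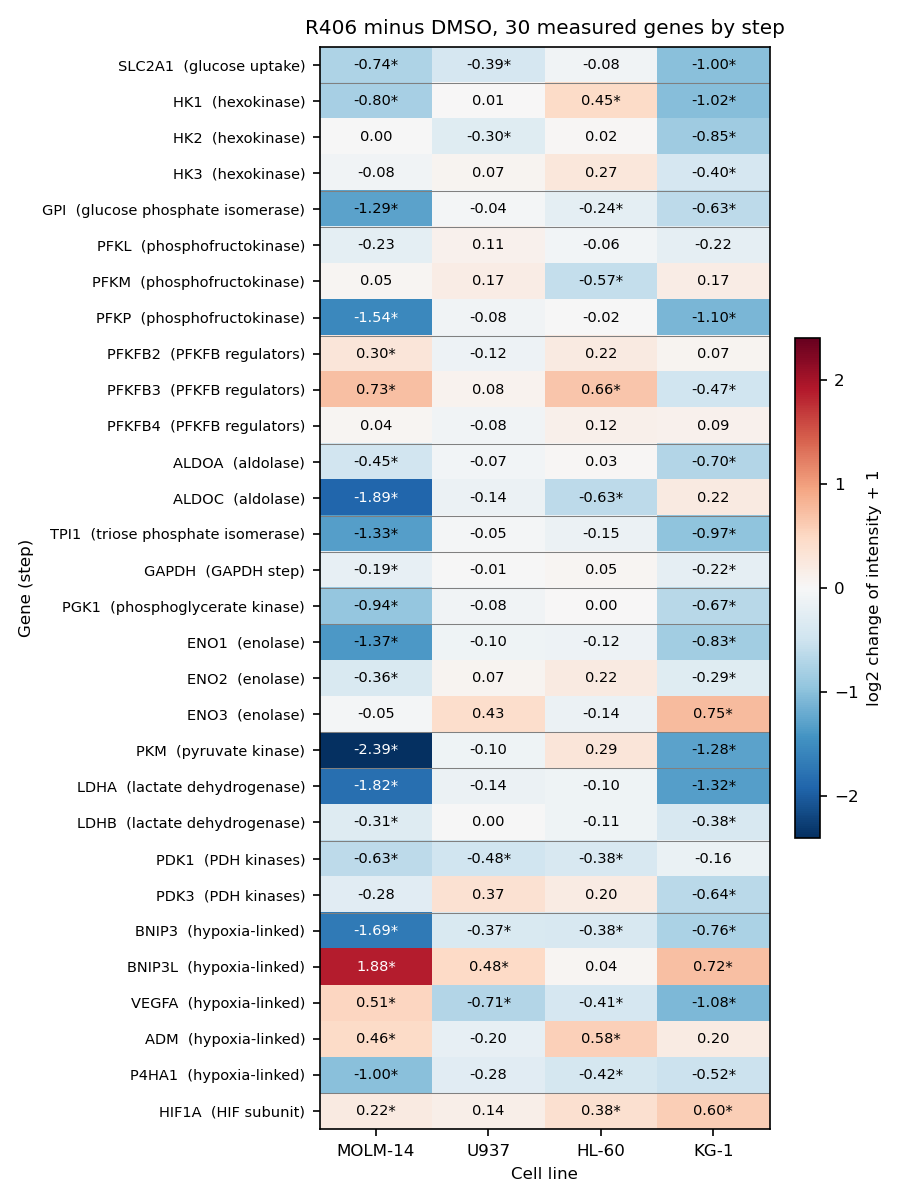
Change of each of the 30 genes (ordered by pathway step) in each cell line, as log2 of intensity plus 1, R406 minus DMSO, from 3 arrays a group; blue is lower and red higher with R406, and an asterisk marks limma adjusted p under 0.05. The MOLM-14 and KG-1 columns are mostly blue in the glycolytic steps, with this probe set of PKM in MOLM-14 the lowest at -2.39 (-0.80 with its probe sets averaged), while U937 and HL-60 are pale.

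Among the 11 genes of glucose uptake and the upper steps, 7 fell in MOLM-14, 8 in KG-1, 2 in U937 and 3 in HL-60, where 1 also rose. Of all genes 25.0%, 20.9%, 5.43% and 7.97% fell in these lines, in the same order, and 7.19% rose in HL-60. SLC2A1, the basal glucose transporter GLUT1 (201250_s_at), read 46.1, 45.4 and 46.3 with DMSO and 27.1, 29.7 and 24.8 with R406 in MOLM-14. In KG-1 it read 38.9, 41.4 and 49.4 with DMSO and 21.0, 22.0 and 20.2 with R406. Treated and control arrays were well apart in both lines, with changes of -0.74 ± 0.08 (SE, n = 3 a group, limma adjusted p = 5.24e-08) and -0.996 ± 0.08 (limma adjusted p = 8.62e-10). U937, the line with the highest DMSO level, went from 63.1, 69.1 and 71.0 to 54.5, 47.9 and 51.6, a smaller change of -0.39 ± 0.08 (limma adjusted p = 0.00246). In HL-60 the groups overlapped (-0.08 ± 0.08). With its second, dim probe set averaged in, the changes were -0.40 in MOLM-14 and -0.52 in KG-1.

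The hexokinases parted by isoform and line. HK1, the widely expressed form (200697_at), read 283, 247 and 292 with DMSO and 148, 104 and 156 with R406 in KG-1, a change of -1.02 ± 0.11 (limma adjusted p = 4.69e-08). In HL-60 it rose, from 109, 118 and 101 to 143, 145 and 162 (0.45 ± 0.11, limma adjusted p = 0.00547). Neither line showed any overlap between treatments. MOLM-14 fell from 128 ± 7.98 to 73.4 ± 4.57 (SD, n = 3), and U937 stayed at 0.01 ± 0.11.

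HK2, the inducible hexokinase often raised in tumours (202934_at), fell in KG-1 from 244, 226 and 231 to 134, 127 and 126 (-0.85 ± 0.07, limma adjusted p = 1.01e-09). U937 went from 319, 314 and 328 to 239.8, 275 and 269 (-0.30 ± 0.07, limma adjusted p = 0.00743), and that call was lost without R406 replicate 1 (limma adjusted p = 0.0618). Both lines were without overlap, while MOLM-14 and HL-60 changed by 0.00 and 0.02. The dimmer HK2 probe set, 222305_at, moved by -1.22 in MOLM-14, -0.13 in U937, -0.75 in HL-60 and -1.60 in KG-1. With both averaged, HK2 was called lower in MOLM-14 (-0.61) and HL-60 (-0.36), so its behaviour in these lines differs with the probe set read. HK3, the hexokinase of myeloid cells, was dim in KG-1 and fell from 10.6 ± 2.53 to 7.75 ± 1.48 (SD) with overlapping groups, a call lost without DMSO replicate 1 or R406 replicate 1 (limma adjusted p up to 0.157).

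GPI, the isomerase that follows hexokinase (208308_s_at), fell 2.45-fold in MOLM-14, from 1773 ± 84.2 to 723 ± 43.3 (SD, n = 3), and 1.55-fold in KG-1, from 1389 ± 86.4 to 896 ± 28.0. In HL-60 it fell by 0.24 on the log2 scale (limma adjusted p = 0.0129), a call lost without DMSO replicate 1 or R406 replicate 2 (limma adjusted p up to 0.067).

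Phosphofructokinase is assembled from liver (PFKL), muscle (PFKM) and platelet (PFKP) subunits, and PFKP was the one that fell in MOLM-14 and KG-1. PFKP (201037_at) read 689, 665 and 634 with DMSO and 226, 228 and 229 with R406 in MOLM-14, a 2.91-fold fall (-1.54 ± 0.07, limma adjusted p = 6.09e-15). In KG-1 it read 665, 589 and 655 with DMSO and 286, 285 and 319.9 with R406, a 2.14-fold fall (-1.10 ± 0.07, limma adjusted p = 6.11e-12). The treated arrays of both lines lie far under their controls. In U937 and HL-60 the groups overlapped, with changes of -0.08 ± 0.07 and -0.02 ± 0.07.

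PFKL (211065_x_at) passed the test in no line, with changes of -0.23 ± 0.11 in MOLM-14 and -0.22 ± 0.11 in KG-1. Centring arrays on their medians brought both to -0.28 and past the threshold (limma adjusted p = 0.0376 and 0.048). PFKM (210976_s_at) was dim outside HL-60, where it fell from 67.5, 67.2 and 69.0 to 49.9, 45.4 and 40.9 without overlap (-0.57 ± 0.12, limma adjusted p = 0.00128). U937 and HL-60 differed in this change by 0.75 ± 0.16 (limma adjusted p = 0.00517).

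The PFKFB enzymes make and break fructose 2,6-bisphosphate, the activator of phosphofructokinase, and PFKFB3 is the form whose kinase side dominates. PFKFB3 (202464_s_at) rose in MOLM-14 from 114, 139.7 and 134 to 254, 171 and 224 (0.73 ± 0.12, limma adjusted p = 1.40e-05). It rose in HL-60 from 54.8, 58.0 and 52.5 to 84.2, 88.5 and 90.7 (0.66 ± 0.12, limma adjusted p = 0.000379). In KG-1 it fell, from 132, 139.5 and 110.4 to 77.2, 95.6 and 102 (-0.47 ± 0.12, limma adjusted p = 0.00198). None of these lines had overlapping groups, so PFKFB3 went up in MOLM-14 while most glycolytic enzymes there went down. The MOLM-14 and KG-1 changes differed by 1.20 ± 0.17 (limma adjusted p = 6.62e-06), and U937 was at 0.08 ± 0.12. PFKFB2 was dim and called higher in MOLM-14 (0.30 ± 0.12, limma adjusted p = 0.0357), a call lost without DMSO replicate 1 or 2 or R406 replicate 1 (limma adjusted p up to 0.202) and under repeated quantile normalization (0.0749) or median centring (0.0781).

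Aldolase splits the phosphorylated sugar. ALDOA, the main isoform (200966_x_at), fell 1.37-fold in MOLM-14, from 5062 ± 125 to 3697 ± 79.3 (SD, n = 3), and 1.63-fold in KG-1, from 4248 ± 358 to 2605 ± 164. ALDOC, the isoform best known from brain (202022_at), had another pattern. In MOLM-14 it read 151, 105 and 115 with DMSO and 42.6, 24.8 and 31.3 with R406, a 3.72-fold fall (-1.89 ± 0.17, limma adjusted p = 2.58e-09). In HL-60 it read 52.9, 36.5 and 37.0 with DMSO and 27.4, 21.5 and 31.5 with R406 (-0.63 ± 0.17, limma adjusted p = 0.0153). Neither overlapped, but the HL-60 call was lost without DMSO replicate 1, the high control array, or R406 replicate 2 (limma adjusted p up to 0.112). U937 and KG-1 were dim, at 11.8 to 16.9 on every array, and moved by -0.14 and 0.22. MOLM-14 and KG-1 differed by -2.12 ± 0.25 (limma adjusted p = 5.71e-07).

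TPI1, which interconverts the triose phosphates (200822_x_at), read 2773, 2899 and 2844 with DMSO and 1098, 1228 and 1069 with R406 in MOLM-14, a 2.51-fold fall (-1.33 ± 0.06, limma adjusted p = 8.70e-15). In KG-1 it read 2271, 2113 and 2265 with DMSO and 1149, 1133 and 1114 with R406, a 1.96-fold fall (-0.97 ± 0.06, limma adjusted p = 6.11e-12). Each set of 3 is tight and the gap between treatments wide. In HL-60 and U937 the arrays were also apart, but the changes of -0.15 ± 0.06 and -0.05 ± 0.06 did not pass. TPI1 was called lower in HL-60 with a pseudocount of 16, array weights or an intensity trend (limma adjusted p from 0.0216 to 0.0367).

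Of the 6 genes of the lower, ATP-yielding steps, 5 fell in MOLM-14, and in KG-1 5 fell and 1 rose. Of all genes 25.0% fell in MOLM-14, and in KG-1 20.9% fell and 23.6% rose. In U937 and HL-60 limma called 0 of the 6, with 1 (ENO3) and 0 at an unadjusted p under 0.05, where 11.5% and 15.2% of all genes were called. GAPDH, the dehydrogenase often used as a loading control (212581_x_at), changed little, from 8020 ± 26.8 to 7018 ± 87.8 (SD, n = 3) in MOLM-14 (-0.19 ± 0.06, limma adjusted p = 0.00723). In KG-1 it went from 7687 ± 272 to 6592 ± 559 (-0.22 ± 0.06, limma adjusted p = 0.00270), a call lost with the KG-1 arrays fitted alone (limma adjusted p = 0.075). PGK1, the first enzyme to return ATP (200738_s_at), fell 1.91-fold in MOLM-14, from 3685 ± 127 to 1926 ± 12.7, and 1.59-fold in KG-1, from 4434 ± 162 to 2797 ± 159.5. Its probe sets 217356_s_at and 200737_at gave -1.35 and -1.50 (log2) in MOLM-14 and -0.96 and -1.04 in KG-1. The dimmest, 217383_at, gave -0.535 in MOLM-14 and -0.28 in KG-1, so the size of the fall differs with the probe set read.

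ENO1, the ubiquitous enolase (201231_s_at), read 3131, 3111 and 3157 with DMSO and 1265, 1157 and 1214 with R406 in MOLM-14, a 2.59-fold fall (-1.37 ± 0.08, limma adjusted p = 8.04e-13). The controls and the treated arrays form narrow, distant sets. In KG-1 it fell 1.78-fold, from 3215 ± 24.6 to 1821 ± 274 (SD). The other ENO1 probe set, 217294_s_at, gave larger falls of -1.83 in MOLM-14 and -1.09 in KG-1 (log2). ENO2, the neuronal enolase, was dim, at 12.9 or less on every array, and fell in MOLM-14 (-0.36 ± 0.11) and KG-1 (-0.29 ± 0.11). The KG-1 call was lost without DMSO replicate 1 or 2 or R406 replicate 3 (limma adjusted p up to 0.262). ENO3, the muscle enolase and also dim (204483_at), rose in KG-1 from 12.2, 11.4 and 9.64 to 16.4, 24.7 and 17.6 (0.75 ± 0.17, limma adjusted p = 0.000600), and by 0.39 with a pseudocount of 16.

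PKM, pyruvate kinase (201251_at), had the most negative change of the list with the probe set used here, but not with its probe sets averaged. In MOLM-14 it read 240.4, 234 and 255 with DMSO and 53.4, 41.2 and 42.6 with R406, a 5.25-fold fall (-2.39 ± 0.16, limma adjusted p = 9.23e-12). In KG-1 it read 242, 229 and 214 with DMSO and 118, 60.0 and 114 with R406, a 2.43-fold fall (-1.28 ± 0.16, limma adjusted p = 4.21e-07). Both lines were without overlap, and without the low KG-1 array, replicate 2, the KG-1 change was -0.97. HL-60 went from 446, 411 and 444 to 570.5, 520.0 and 505, also without overlap, but did not pass (0.29 ± 0.16, limma adjusted p = 0.266), and U937 was at -0.10 ± 0.16. MOLM-14 and KG-1 differed by -1.11 ± 0.22 (limma adjusted p = 0.000464). A dimmer PKM probe set, 213700_s_at, moved by only -0.07 in MOLM-14 and -0.36 in KG-1, and with all 3 probe sets averaged the falls were -0.80 and -0.60, and HL-60 was called higher (0.33, limma adjusted p = 0.00556).

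Of the 4 measured genes for the fate of pyruvate, 3 fell in MOLM-14, 3 in KG-1, 1 in U937 and 1 in HL-60. Of all genes 25.0%, 20.9%, 5.43% and 7.97% fell in these lines, in the same order. LDHA, the lactate dehydrogenase subunit that favours lactate (200650_s_at), read 6065, 6005 and 5820 with DMSO and 1638, 1676 and 1770 with R406 in MOLM-14, a 3.52-fold fall (-1.82 ± 0.08, limma adjusted p = 5.31e-15). In KG-1 it read 6033, 5737 and 5763 with DMSO and 2547, 1964 and 2574 with R406, a 2.49-fold fall (-1.32 ± 0.08, limma adjusted p = 4.23e-12). Each of these treated arrays was below every DMSO array of the 4 lines. In U937 and HL-60 the changes were -0.14 ± 0.08 (95% interval -0.31 to 0.02) and -0.10 ± 0.08 (-0.27 to 0.06), so a fall as large as that of KG-1 lies outside both intervals. LDHB, the subunit that favours pyruvate (201030_x_at), fell less, from 5842 ± 71.9 to 4709 ± 320.0 (SD) in MOLM-14 (-0.31 ± 0.06) and from 3854 ± 162 to 2965 ± 163 in KG-1 (-0.38 ± 0.06).

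**Figure D2:**
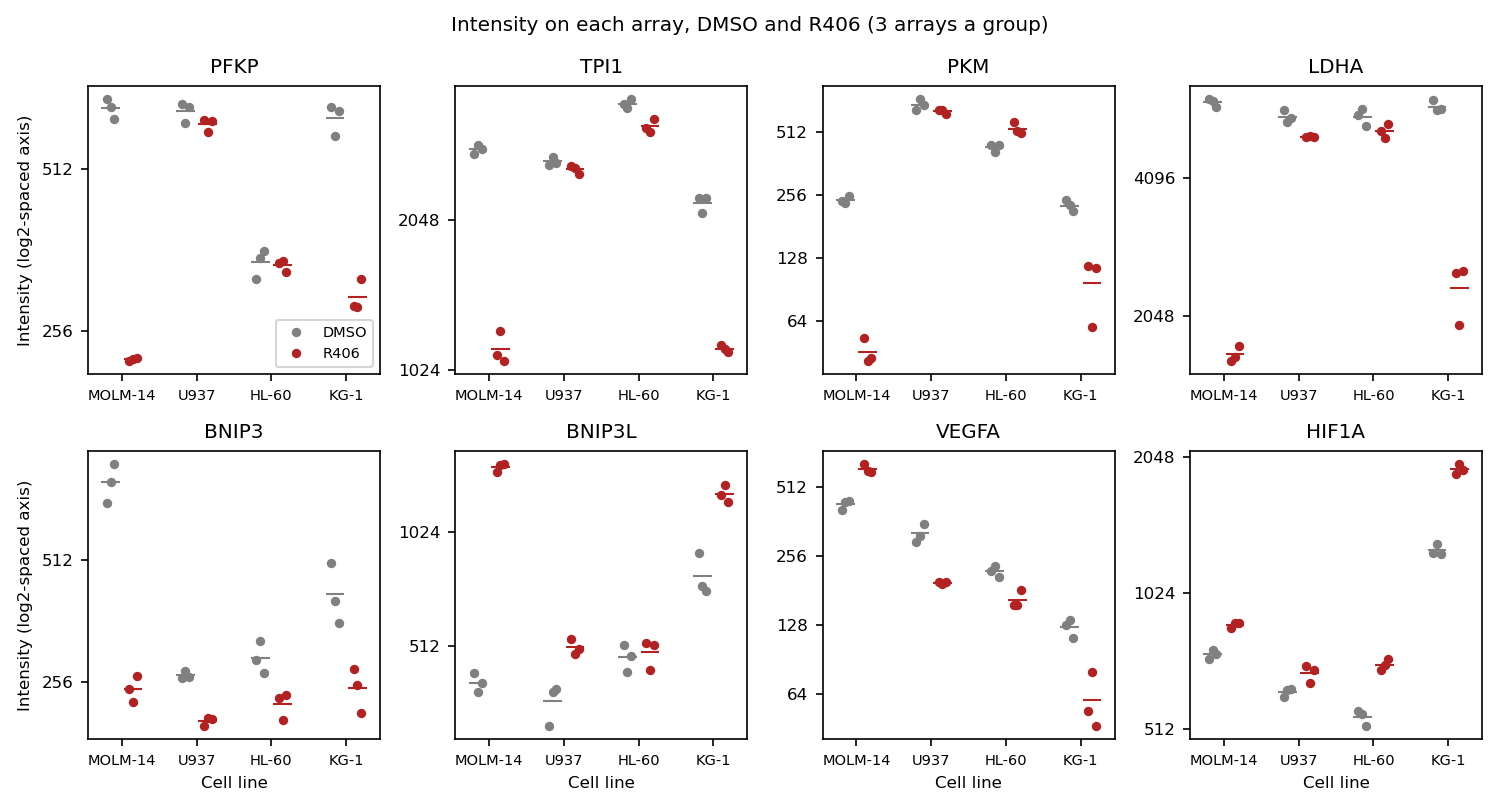
Intensity on each of the 24 arrays for PFKP, TPI1, PKM, LDHA, BNIP3, BNIP3L, VEGFA and HIF1A, on log-scaled axes that differ between panels; points are arrays (DMSO and R406 side by side in each line) and bars are means of 3. LDHA lies between 5315 and 6065 on every DMSO array and between 1638 and 2574 on the R406 arrays of MOLM-14 and KG-1, while BNIP3L climbs to 1472 or more in MOLM-14.

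The PDH kinases hold back pyruvate entry into mitochondria. PDK1, a known HIF-1 target (206686_at), fell in U937 from 269.5, 291 and 316 to 197, 218 and 214, without overlap (-0.48 ± 0.10, limma adjusted p = 0.00328). It was far dimmer in the other lines and fell from 18.6 ± 2.00 to 11.7 ± 1.94 (SD) in MOLM-14 and from 17.3 ± 0.59 to 13.04 ± 0.95 in HL-60. The HL-60 call was lost without DMSO replicate 3 or R406 replicate 1 (limma adjusted p up to 0.074). The F test for a difference between lines just missed the threshold (adjusted p = 0.0504). PDK3 (221957_at) fell in KG-1 from 66.1 ± 2.24 to 42.1 ± 4.79 (limma adjusted p = 0.000269). In U937 it went from 67.5 ± 1.32 to 87.6 ± 5.16 without overlap but did not pass (0.37 ± 0.13, limma adjusted p = 0.0762). PDK3 was called higher in U937 with probe sets averaged, a pseudocount of 16, array weights or U937 fitted alone (limma adjusted p from 0.00565 to 0.0339). In MOLM-14 its probe sets differed in size, at -0.28 for the one used and -0.34 and -1.30 for the others, and with their mean it was called lower (-0.64).

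The 6 hypoxia-linked genes did not move as a block, with 2 down and 4 up in MOLM-14, and 3 down and 2 up in KG-1. Of all genes 25.0% fell and 31.1% rose in MOLM-14, and 20.9% fell and 23.6% rose in KG-1. BNIP3 and BNIP3L encode related mitochondrial proteins that recruit the machinery of mitophagy, and they went opposite ways. BNIP3 (201849_at) read 711, 800.4 and 886 with DMSO and 245, 228 and 265 with R406 in MOLM-14, a 3.23-fold fall (-1.69 ± 0.11, limma adjusted p = 8.04e-12). BNIP3L (221479_s_at) read 435, 387 and 409 with DMSO and 1472, 1529 and 1542 with R406 on the same arrays, a 3.69-fold rise (1.88 ± 0.10, limma adjusted p = 1.01e-13). For both genes the groups lie far apart. In KG-1 BNIP3 fell from 422 ± 75.0 to 247 ± 30.8 (SD) and BNIP3L rose from 783 ± 101 to 1286 ± 64.9. The second probe sets gave -1.27 for BNIP3 and 1.88 for BNIP3L in MOLM-14.

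BNIP3 in U937 went from 262, 272 and 263 to 199, 208 and 208 (-0.37 ± 0.11, limma adjusted p = 0.0296). BNIP3L in U937 rose from 316, 389 and 395 to 535, 489.6 and 502 (0.48 ± 0.10, limma adjusted p = 0.00182). Both were without overlap, but the BNIP3 call was lost whichever of the 6 U937 arrays was left out (limma adjusted p 0.0678 to 0.1). In HL-60 BNIP3 fell by 0.38 on the log2 scale (limma adjusted p = 0.0215), a call lost without DMSO replicate 2 or R406 replicate 2 (limma adjusted p up to 0.114), and BNIP3L was at 0.04 ± 0.10.

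VEGFA, the angiogenic growth factor (210512_s_at), rose in MOLM-14 and fell in the other lines. MOLM-14 went from 404, 438 and 444 to 643, 598 and 595 (0.51 ± 0.13, limma adjusted p = 0.00141). U937 went from 295, 313 and 353 to 196, 193 and 197 (-0.71 ± 0.13, limma adjusted p = 0.000680). In these lines, and in KG-1 below, no treated array reached the range of its controls. KG-1 went from 128, 135 and 112 to 53.9, 79.8 and 46.5 (-1.08 ± 0.13, limma adjusted p = 2.14e-07). HL-60 went from 221, 232 and 206 to 156, 157 and 182 (-0.41 ± 0.13, limma adjusted p = 0.0301), without overlap but with the call lost in 4 of 6 leave-outs, namely DMSO replicates 1 and 2 and R406 replicates 1 and 2 (limma adjusted p up to 0.109). MOLM-14 and KG-1 differed by 1.59 ± 0.18 (limma adjusted p = 3.65e-07). Of the dimmer VEGFA probe sets, those reading 0.56 and 0.29 in MOLM-14 share the direction and the dimmest, at -0.38, does not. In KG-1 the same dimmer probe sets, in order of brightness, changed by -0.07, -0.48 and -0.45, so the size of the KG-1 fall differs with the probe set read. With all averaged the changes were 0.24 in MOLM-14 and -0.52 in KG-1.

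ADM, the vasodilator peptide adrenomedullin (202912_at), rose in HL-60 from 33.2, 30.6 and 44.9 to 48.2, 58.1 and 55.5 (0.58 ± 0.17, limma adjusted p = 0.0237). The groups nearly touch, and the call was lost without DMSO replicate 1 or 2 or R406 replicate 2 or 3 (limma adjusted p up to 0.127). In MOLM-14 it was called higher with overlapping groups (0.46 ± 0.17, limma adjusted p = 0.0246), and lost that call without DMSO replicate 2 or 3 or R406 replicate 1 or 2 (limma adjusted p up to 0.167).

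P4HA1, a subunit of the collagen prolyl hydroxylase (207543_s_at), fell in MOLM-14 from 336 ± 18.2 to 167 ± 3.50 (SD, n = 3) and in KG-1 from 253 ± 40.2 to 175 ± 6.37. HL-60 went from 178, 196 and 165 to 126, 125 and 153 (-0.42 ± 0.09, limma adjusted p = 0.00342), without overlap. U937 did not pass (-0.28 ± 0.09, limma adjusted p = 0.0604), but was called lower under 6 of the alternatives tried (limma adjusted p from 0.0161 to 0.0475).

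HIF1A, the oxygen-regulated subunit of HIF-1, whose activity is set mainly by protein stability (200989_at), rose in 3 lines. HL-60 went from 561, 551 and 519 to 692, 708 and 729 (0.38 ± 0.06, limma adjusted p = 3.42e-05). KG-1 went from 1254, 1316 and 1249 to 1883, 1979 and 1921 (0.60 ± 0.06, limma adjusted p = 5.16e-09). No treated array of either line overlapped its controls. MOLM-14 rose by 0.22 ± 0.06 (limma adjusted p = 0.00164) and U937 was at 0.14 ± 0.06 (limma adjusted p = 0.131). The U937 groups did not overlap, and HIF1A was called higher there with a pseudocount of 16 or array weights (limma adjusted p = 0.0221 and 0.0479). In MOLM-14 and KG-1 HIF1A and BNIP3L transcripts were thus higher while LDHA, PGK1, BNIP3 and P4HA1 transcripts were lower. VEGFA and ADM were called higher in MOLM-14, and VEGFA lower in KG-1. The hypoxia-linked genes had therefore no common direction in either line, and protein was not measured.

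Isoforms of a step were compared by the change in the log2 difference between their probe sets on the same arrays, where only the change has a meaning. LDHA minus LDHB changed by -1.50 in MOLM-14, -0.94 in KG-1, -0.14 in U937 and 0.01 in HL-60. PFKL minus PFKP changed by 1.31, 0.88, 0.19 and -0.04 in the same order of lines. BNIP3 minus BNIP3L changed by -3.57, -1.48, -0.85 and -0.42. In all 3 pairs the shift was widest in MOLM-14 and next in KG-1. Treated and control arrays did not overlap except for the first 2 pairs in HL-60. Over 12 pairs in 4 lines, 34 of 48 comparisons had no overlap, with a two-sided exact permutation p of 0.1, the smallest possible, or 0.141 after adjustment over the 48. The share among other pairs of genes was not computed. Single genes alone were apart for 57.8% of all genes in MOLM-14, 49.8% in KG-1, 34.0% in U937 and 32.8% in HL-60. The count of 34 is therefore no result about isoforms.

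Other pairs were less even. ALDOA minus ALDOC changed by 1.44 in MOLM-14 (1.06 with a pseudocount of 16) and -0.93 in KG-1, where ALDOC was dim. ENO1 minus ENO3, of which ENO3 was dim, changed by -1.32 in MOLM-14 and -1.58 in KG-1. The latter was -1.21 with a pseudocount of 16. In MOLM-14 ENO1 minus ENO3 was -1.05 with repeated quantile normalization and -1.55 with all probe sets averaged. PDK1 minus PDK3 changed by -0.85 in U937, -0.58 in HL-60 (-0.35 with a pseudocount of 16) and 0.48 in KG-1. The arrays did not overlap in any of these pairs and lines with the main settings. HK1 minus HK2 changed by -0.80 in MOLM-14, 0.31 in U937, 0.43 in HL-60 and -0.17 in KG-1, where the groups overlapped. With all probe sets averaged, HK1 minus HK2 was -0.19 in MOLM-14, 0.82 in HL-60 and 0.21 in KG-1.

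**Figure D3:**
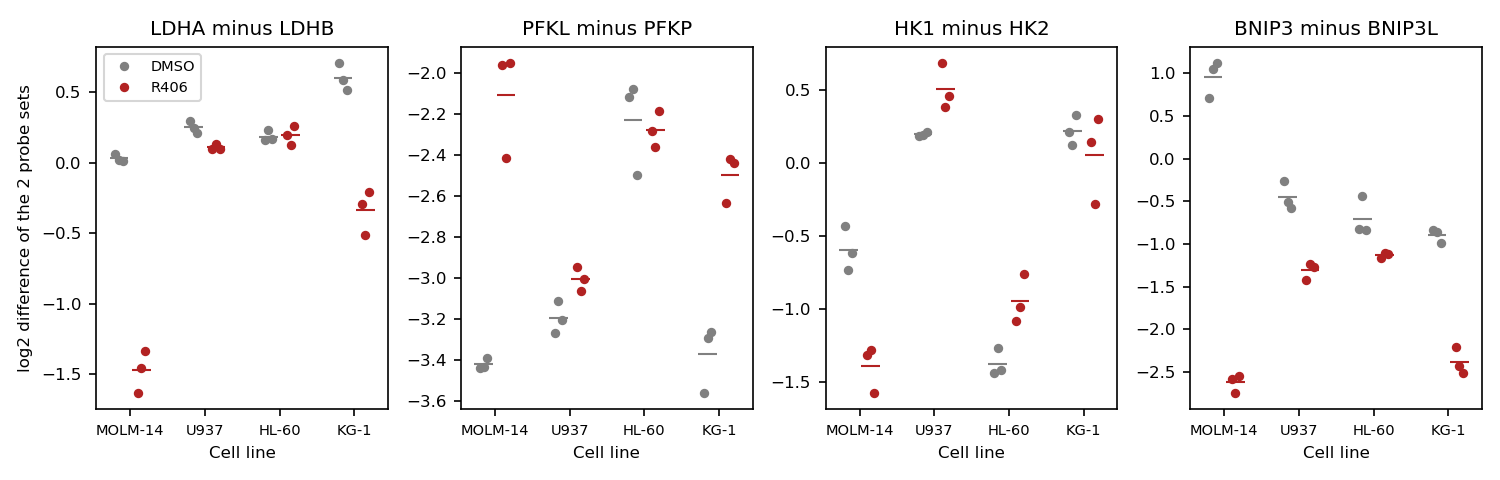
Log2 difference between the probe sets of 2 isoforms on each array, for LDHA minus LDHB, PFKL minus PFKP, HK1 minus HK2 and BNIP3 minus BNIP3L, with points for arrays, bars for means of 3 and axes that differ between panels. The height in a panel has no meaning of its own, and the gap between DMSO and R406 is the change, -1.50 for LDHA minus LDHB in MOLM-14 and 0.01 in HL-60.

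The lines also differed under DMSO alone, for 24 of the 30 members by limma's F test and for 68.1% of all genes. PDK1 had the widest range, at 292 ± 23.6 (SD, n = 3) in U937, 25.3 ± 2.58 in KG-1, 18.6 ± 2.00 in MOLM-14 and 17.3 ± 0.59 in HL-60. The lowest neighbours, MOLM-14 and HL-60, did not differ beyond their spread (limma adjusted p = 0.486), while KG-1 lay above MOLM-14 (limma adjusted p = 0.00124). ALDOC ranged 9.17-fold, from 124 ± 24.3 in MOLM-14 through 42.1 ± 9.33 in HL-60 to 15.5 ± 0.82 in U937 and 12.4 ± 0.73 in KG-1, and the last pair was not apart (limma adjusted p = 0.171). ADM ranged 9.03-fold, from 132.8 ± 7.32 in KG-1 to 14.0 ± 2.72 in U937, and all its neighbours differed. PFKM was at 67.9 ± 0.94 in HL-60 and at 9.58 to 11.1 elsewhere, and those other lines were not apart.

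HIF1A was highest in KG-1 at 1273 ± 37.1 and lowest in HL-60 at 544 ± 22.2, and all neighbours differed, the closest being U937 and HL-60 (limma adjusted p = 0.00734). PKM was highest in U937 at 693 ± 43.0, then HL-60 at 433 ± 19.4, with MOLM-14 at 243 ± 10.7 and KG-1 at 228 ± 14.3 not apart (limma adjusted p = 0.677). LDHA and GAPDH were even, each within 1.07-fold over the lines (limma F adjusted p = 0.533 and 0.411). The falls of LDHA in MOLM-14 and KG-1 therefore began from DMSO levels close to those of U937 and HL-60. PFKL, PFKFB2, PFKFB4 and ENO3 did not pass either.

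**Figure D4:**
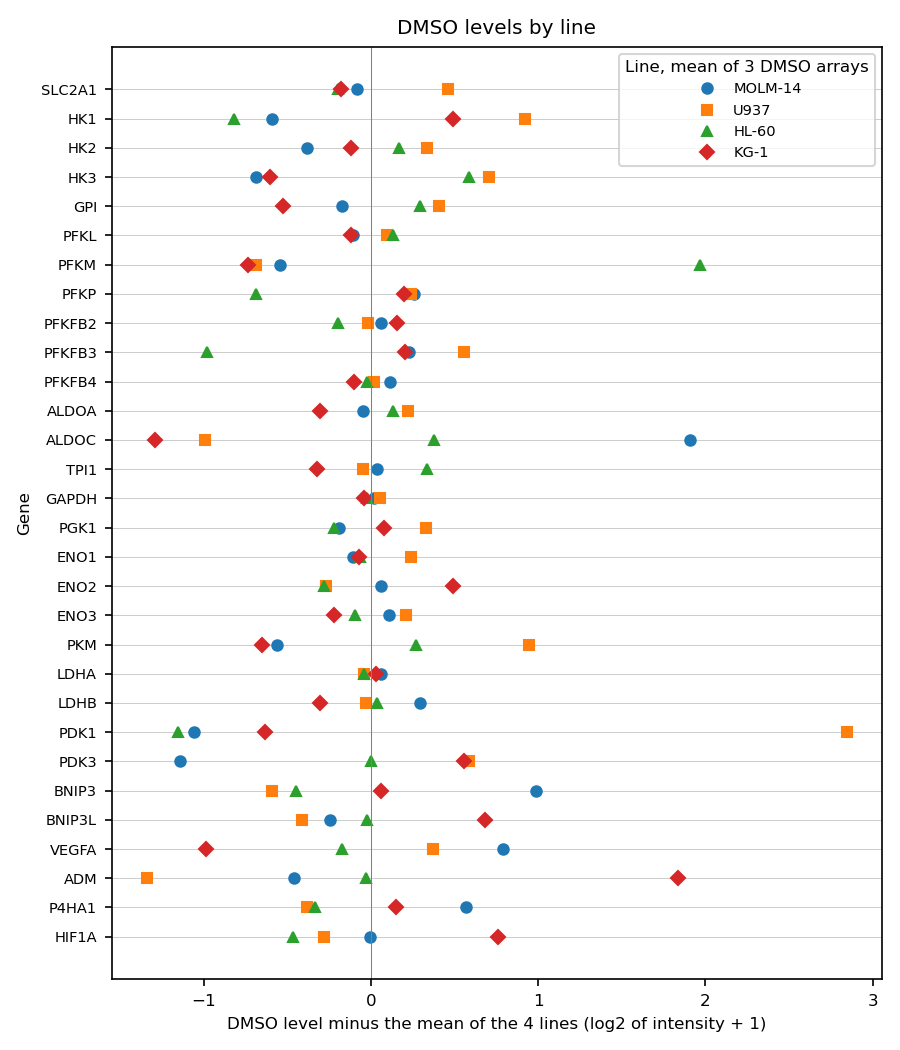
DMSO level of each of the 30 genes in each line, as the mean of 3 arrays relative to the mean of the 4 lines (log2 of intensity plus 1). PDK1 in U937, PFKM in HL-60, ALDOC in MOLM-14 and ADM in KG-1 stand above the other lines, while LDHA and GAPDH lie close to 0 in all.

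The changes were also compared between pairs of lines. MOLM-14 differed from U937 for 22 of 30 members (43.8% of all genes), from HL-60 for 19 (45.3%) and from KG-1 for 18 (33.5%). KG-1 differed from U937 for 16 (33.3%) and from HL-60 for 23 (35.7%). U937 and HL-60 differed for 2, PFKM and PFKFB3 (7.23%). PFKP, TPI1, ENO1, PKM, LDHA and GPI fell further in MOLM-14 than in KG-1, with differences of -0.44, -0.36, -0.54, -1.11, -0.50 and -0.66. The limma adjusted p of these differences ran from 4.94e-06 to 0.00161. For PKM the difference is that of the probe set used, and with its probe sets averaged the changes were -0.80 in MOLM-14 and -0.60 in KG-1. ALDOA fell further in KG-1 (difference 0.25, limma adjusted p = 0.0378). With the probe set used, HK2 fell in KG-1 and not in MOLM-14 (difference 0.85, limma adjusted p = 6.49e-07).

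Other genes around the pathway were read from lists, with the 4 genes of lowest F-test p in each list named. The counts of each list are to be read beside the shares of all genes. Of all genes 25.0% fell and 31.1% rose in MOLM-14, and 20.9% fell and 23.6% rose in KG-1. In U937 5.43% fell and 6.12% rose, and in HL-60 7.97% fell and 7.19% rose. Among 12 measured alternative isozymes and transporters, 4 fell and 2 rose in MOLM-14, 1 fell in U937, and 1 fell and 1 rose in each of HL-60 and KG-1. SLC2A3, the high-affinity glucose transporter GLUT3, fell in MOLM-14, U937 and KG-1 (-1.03, -0.86 and -1.14). In HL-60 it read 90.1, 85.3 and 90.8 with DMSO and 388, 367 and 409 with R406, a rise of 2.12 ± 0.12 (limma adjusted p = 7.66e-11) with a wide gap between the groups. SLC2A5, the fructose transporter GLUT5, rose in MOLM-14 and KG-1 (1.24 and 0.94) and fell in HL-60 (-0.78). MINPP1, an inositol phosphate phosphatase, and the monocarboxylate transporter SLC16A7 fell in MOLM-14 (-0.96 and -1.41).

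In the pentose phosphate pathway, which branches off at glucose 6-phosphate, 3 of 5 measured genes fell and 1 rose in MOLM-14, and 2 fell and 3 rose in KG-1. U937 had 1 down and 1 up, and HL-60 2 down. RPIA, the ribose phosphate isomerase, fell in all 4 lines (-1.24 in MOLM-14, -0.26 in U937, -0.26 in HL-60 and -0.81 in KG-1). The epimerase RPE fell in MOLM-14, HL-60 and KG-1 (-1.33, -0.35 and -0.77). Transaldolase, TALDO1, fell in MOLM-14 (-0.40) and rose in U937 and KG-1 (0.20 and 0.22), and PGLS rose in MOLM-14 and KG-1 (0.43 and 0.22).

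Of 10 genes of pyruvate dehydrogenase and mitochondrial pyruvate entry, 6 fell and 3 rose in MOLM-14, 5 fell and 2 rose in KG-1, 2 fell in U937 and 1 in HL-60. DLAT, the acetyltransferase of the complex, fell in all 4 lines (-1.45 in MOLM-14, -1.34 in KG-1, -0.42 in U937 and -0.30 in HL-60), and the catalytic subunit PDHA1 fell in MOLM-14 and KG-1 (-1.06 and -0.74). The kinase PDK2 rose in MOLM-14 and KG-1 (1.12 and 0.51), and the pyruvate carrier subunit MPC2 rose in MOLM-14 (0.37). LDHA, DLAT and PDHA1 transcripts were thus all lower in MOLM-14 and KG-1.

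Among 11 genes of glycogen and the hexose side branches, 7 fell and 1 rose in MOLM-14, 6 fell and 2 rose in KG-1, and 1 fell and 1 rose in HL-60. PGM1, which links glycogen to glycolysis, fell in MOLM-14 and KG-1 (-1.12 and -0.43), and the glycogen synthase GYS1 fell in MOLM-14 (-0.86). TIGAR, a phosphatase that lowers glycolytic flux, fell in MOLM-14 and KG-1 (-1.15 and -0.86) and rose in HL-60 (0.59). The glycogen phosphorylase PYGB rose in MOLM-14 (0.51) and fell in KG-1 (-0.40).

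Of 9 genes of the HIF system, 3 rose and 3 fell in MOLM-14, 1 rose in U937, and 1 rose and 1 fell in KG-1. ARNT, the constant partner of HIF1A, rose in MOLM-14, U937 and KG-1 (0.69, 0.34 and 0.80). EPAS1, which encodes HIF-2 alpha, rose in MOLM-14 from 246, 291 and 292 to 858, 752 and 814, far above its controls (1.55 ± 0.15, limma adjusted p = 8.38e-09). In MOLM-14 the oxygen-sensing hydroxylase EGLN2 also rose (0.38) and CITED2, which competes with HIF for its coactivator, fell (-0.52).

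Of the 19 further hypoxia-inducible genes, 7 fell and 6 rose in MOLM-14, and 5 fell and 7 rose in KG-1. Of all genes 25.0% fell and 31.1% rose in MOLM-14, and 20.9% fell and 23.6% rose in KG-1. In U937 1 of the 19 fell and 1 rose, and in HL-60 3 fell and 2 rose. DDIT4, an inhibitor of mTORC1, fell in MOLM-14 and U937 (-1.10 and -0.64) and rose in HL-60 and KG-1 (0.46 and 1.24). The histone demethylase KDM3A rose in MOLM-14 and KG-1 (1.70 and 0.89). STC2, a secreted stanniocalcin, fell in MOLM-14 and KG-1 (-1.54 and -1.74), and the transferrin receptor TFRC fell in MOLM-14, HL-60 and KG-1 (-1.98, -0.34 and -0.84).

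Of 4 measured genes of glucose sensing and the MYC axis, 2 rose and 1 fell in MOLM-14, 1 rose and 1 fell in U937, 2 fell in HL-60, and 3 rose and 1 fell in KG-1. MYC, a factor that drives growth genes, fell in every line and went from 3993 ± 135 to 382 ± 16.03 (SD, n = 3) in MOLM-14 (-3.38) and from 5289 ± 29.7 to 1242 ± 238 in KG-1 (-2.11). In U937 and HL-60 its changes were -0.80 and -0.62. TXNIP, which restrains glucose uptake, rose in MOLM-14, U937 and KG-1 (1.26, 0.42 and 0.67) and fell in HL-60 (-0.88). The glucose-responsive factor MLXIP rose in MOLM-14 and KG-1 (0.92 and 0.74), and MAX rose in KG-1 (0.41). The part of MYC or of any of these regulators in the changes of the 30 genes was not tested.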

How the data were processed

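RNA of 4 AML lines treated with DMSO or R406 was measured on 24 arrays. The deposited values are probe set intensities, made by the authors with RMA per the submitters' processing notes, with no version given in the sources used here. Their range (3.41 to 12686) places them on a linear scale, so log2 of intensity plus a pseudocount of 1 was taken. RMA usually brings arrays to a shared distribution, which would hide a shift common to most genes.

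Of 22277 probe sets, 62 controls, 568 with several symbols and 1923 not listed in the annotation used were left out, and the brightest probe set stood for each of 12165 genes. Of the 30 members, 15 have several probe sets and 17 rest on one that can bind related transcripts. limma 3.58.1 in R 4.3.3 (lmFit, eBayes) fitted a mean for each of 8 groups with 16 residual degrees of freedom, and was tested on simulated data. Changes within lines, their mean, their differences and DMSO levels were adjusted by Benjamini-Hochberg over all genes. Isoform pairs and control ratios had exact permutation tests. Promoter windows come from RefSeq GRCh38.p14. The labels give the R406 dose in µM in the treatment protocol, used here, and in mM in the design text.

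Every measured member could be named. Arrays are given one by one for the called members with separate groups, up to 8 with the largest change in each line, and the 6 with the widest range between lines. A few more are given that the text compares with them and were chosen after their values were seen. The members and lists were chosen with earlier results of these data known. Alternatives were median centring, quantile normalization repeated, leaving out the dimmest 33.3% of genes, the mean of a gene's probe sets, a pseudocount of 16, array weights, an intensity trend, a replicate block, each line alone and each array left out. Detection calls and scan dates were not used. Precision is limited by having 3 arrays a group.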

Additional observations from a re-analysis of the deposited data

Results flagged for a closer look

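The change with R406 differed between the 4 lines for 26 members by limma's moderated F test, adjusted over all genes. Each size is the highest minus the lowest log2 change over the lines. For glucose uptake and the upper steps the spread was SLC2A1 0.91, HK1 1.47, HK2 0.87, HK3 0.68, GPI 1.25, PFKM 0.75, PFKP 1.52, ALDOA 0.73, ALDOC 2.12 and TPI1 1.28. For PFKFB3 and the lower steps the spread was PFKFB3 1.20, GAPDH 0.27, PGK1 0.94, ENO1 1.27, ENO2 0.58, ENO3 0.89 and PKM 2.69. For the fate of pyruvate the spread was LDHA 1.71, LDHB 0.38 and PDK3 1.01. For the hypoxia-linked genes and HIF1A the spread was BNIP3 1.32, BNIP3L 1.84, VEGFA 1.59, ADM 0.78, P4HA1 0.72 and HIF1A 0.46. 

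The same test passed for the 28 surrounding genes named above, again with the spread between the highest and lowest line in log2. For MYC and glucose sensing it was MYC 2.76, TXNIP 2.14, MLXIP 0.88 and MAX 0.57. For glycogen and hexose branches it was PGM1 1.26, TIGAR 1.74, PYGB 0.91 and GYS1 0.88. For the HIF system it was EPAS1 1.93, ARNT 0.76, EGLN2 0.47 and CITED2 0.81. For further hypoxia-inducible genes it was DDIT4 2.35, STC2 1.90, KDM3A 1.75 and TFRC 1.81. For alternative isozymes and transporters it was SLC2A3 3.26, SLC2A5 2.02, MINPP1 1.12 and SLC16A7 1.42. For the pentose phosphate pathway it was RPIA 0.98, RPE 1.25, TALDO1 0.62 and PGLS 0.59. For pyruvate dehydrogenase and pyruvate entry it was DLAT 1.15, PDHA1 0.92, PDK2 0.99 and MPC2 0.49.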

How the results depend on the processing

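Of 63 changes called in a line, 50 kept their direction and their side of the threshold under every alternative that tested them. ENO2, called in MOLM-14 and KG-1, was among the dimmest genes and was not tested with those left out, where 61 of 63 remained. The others were ADM, ALDOC, BNIP3, GPI, PDK1 and VEGFA in HL-60, ADM and PFKFB2 in MOLM-14, BNIP3 and HK2 in U937, and ENO2, GAPDH and HK3 in KG-1. Leaving out 1 array gave 22 to 24 members called in MOLM-14, 4 to 5 in U937, 6 to 10 in HL-60, 21 to 23 in KG-1, 23 to 24 for the mean, 25 to 27 for the difference between lines and 24 to 26 for DMSO levels. With array weights 10 members were called in U937 in place of 6, and the cause was not tested. With the mean of its probe sets HK2 in HL-60 turned from 0.02 to -0.36 (limma adjusted p = 0.000262), as its second probe set fell there. The replicate block gave 23 members in MOLM-14 and 23 in KG-1, 6 in U937, 11 in HL-60, 23 for the mean, 25 for the difference between lines and 24 for DMSO levels, and changed no call of a member within a line. Same-numbered arrays did not deviate together: over 12 pairs their correlation ran from -0.08 to 0.07, and 6 correlated best with their own number. Scaling moved the median change of all genes by at most -0.05. Dim members such as ENO2, ENO3 and HK3 lie near the low end of the intensities, where a pseudocount of 16 shrinks a change.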
